A study of Homo sapiens with 10 samples.

Results

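The 10 genes described here are those for keratins 8, 18, 19 and 10 (KRT8, KRT18, KRT19, KRT10), vimentin (VIM) and the transcription factors SNAI1, SNAI2, ZEB1, ZEB2 and TWIST1. They were chosen by symbol, through the Ensembl identifiers of the deposited count table, and all 10 had a row among its 55841 gene identifiers. RNA was sequenced from human embryonic stem cells grown on Matrigel in mTeSR1 without feeder cells. Their line is HES9 in the labels but WA09 in the study's text, and which name applies is not resolved here. The unsorted general population (5 libraries) was compared with HHH cells (5 libraries), the small fraction sorted for the highest levels of the surface antigens GCTM-2, CD9 and EPCAM. Whether the general cells were dissociated and stained in the same way is not stated. Batch 1 held 2 libraries of each population and batch 2 held 3 of each. The design text also mentions protein kinase C inhibitors, which no label of these libraries carries. The labels do not say whether the libraries of a population, all from the same line, came from separate cultures, so p-values measure the spread between these libraries, which may be technical.

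Keratins and vimentin are intermediate filament proteins. Type II keratins such as keratin 8 pair with type I keratins such as keratin 18 or 19 to form the filaments of simple epithelia, whereas vimentin forms filaments on its own and marks mesenchymal and many undifferentiated cells. In epithelial-mesenchymal transition (EMT), the zinc finger proteins of the Snail family (SNAI1, SNAI2) and ZEB family (ZEB1, ZEB2) and the basic helix-loop-helix protein TWIST1 repress epithelial genes, CDH1 among them, and vimentin often replaces keratins. Human embryonic stem cells are epithelial cells that also express vimentin.

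In HHH cells the simple epithelial pair KRT8 and KRT18 rose modestly, VIM fell to less than the lowest general library of its batch in all 5 libraries, and ZEB2, a gene of very low level, fell as well. Such a lack of overlap is common within a batch, with 21% of all tested genes lower in HHH in batch 1 and 18.1% in batch 2. KRT19, KRT10, SNAI1, SNAI2 and ZEB1 did not pass the test, and TWIST1 was at 0 to 4 counts per library and too low to be tested. Of the 9 genes tested, 2 were thus higher and 2 lower at an adjusted p under 0.05, by the quasi-likelihood test of edgeR with batch as a term and Benjamini-Hochberg adjustment over 23552 genes. Over all tested genes 5.83% were called, 1.94% as higher and 3.89% as lower in HHH. VIM and ZEB2 also changed by over 1.5-fold, a limit that 2.34% of all genes passed as lower and 0.637% as higher in HHH. The median log2 fold change of the 9 genes was 0.076, beside 0.016 for all tested genes. In bulk libraries fewer cells that express a gene and less RNA per cell cannot be told apart.

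The sequences just before the start sites of VIM and ZEB2 are shown because these genes fell. They are the 250 bases upstream of the RefSeq start (GRCh38.p14), written 5′ to 3′ on the strand of the gene, and both windows end at the start of the canonical GENCODE transcript. VIM lies at chr10:17228241-17237593 on the plus strand and its window at chr10:17227991-17228240. ZEB2 lies on the minus strand at chr2:144364364-144521057 and its window at chr2:144520120-144520369. Capitals mark a match to the GC box GGGCGG on either strand.
VIM: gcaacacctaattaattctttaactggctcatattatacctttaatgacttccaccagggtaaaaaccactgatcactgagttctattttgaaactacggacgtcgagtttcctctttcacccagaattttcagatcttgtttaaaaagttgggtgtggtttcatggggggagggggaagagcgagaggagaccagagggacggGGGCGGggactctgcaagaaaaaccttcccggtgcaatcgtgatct
ZEB2: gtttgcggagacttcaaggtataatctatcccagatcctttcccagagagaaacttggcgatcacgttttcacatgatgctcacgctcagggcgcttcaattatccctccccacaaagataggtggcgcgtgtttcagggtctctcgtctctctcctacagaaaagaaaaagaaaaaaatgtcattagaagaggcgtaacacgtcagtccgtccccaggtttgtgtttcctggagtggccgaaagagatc
The windows were searched on both strands for the E-box CAGGTG, which Snail and ZEB proteins bind, the GC box and the TATA motif TATAAA. Upstream windows of the same length held them in 17.5%, 42.6% and 10.7% of 35116 promoters. The VIM window held 1 GC box, 46 bases before the start, and neither other motif, and the ZEB2 window held none of the 3. KRT8, KRT10 and ZEB1 also had an entry, while KRT18, KRT19, SNAI1, SNAI2 and TWIST1 did not. Among these 5 windows ZEB1 alone held an E-box, 1 match 57 bases before the start used by RefSeq, and KRT10 alone held a TATA motif, 29 bases before its start. A match is a description of the letters and not a site of binding.

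KRT8 encodes the type II partner of the simple epithelial pair. Its gene lies on the minus strand at chr12:52897187-52949954 (GRCh38). In batch 1 its level was 244 and 259 CPM (TMM-scaled counts relative to library size) in the general libraries and 337 and 318 CPM in HHH. In batch 2 it was 173, 176 and 167 CPM in the general libraries and 229, 219 and 208 CPM in HHH. Within each batch all HHH libraries were above all general ones, while over the 10 libraries the populations overlapped, with lower levels in batch 2. The general mean was 204 ± 43.8 CPM (SD, n = 5) and the HHH mean 262 ± 60.3 CPM (SD, n = 5). The log2 fold change was thus 0.36 ± 0.065 (SE), with an adjusted p of 0.00404.

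KRT18 encodes the type I partner and lies next to KRT8 on the opposite strand, at chr12:52948871-52952906. In batch 1 it was at 221 and 249 CPM in the general libraries and at 357 and 313 CPM in HHH. In batch 2 the general libraries held 169, 169 and 152 CPM and the HHH libraries 249, 237 and 201 CPM. As for KRT8, no HHH library fell within the general range of its own batch. Its mean was 192 ± 41.0 CPM (SD) in general and 272 ± 62.8 CPM in HHH, and the log2 fold change 0.50 ± 0.080 (SE) had an adjusted p of 0.00178. The difference between populations was of like size in the batches, at 0.51 in batch 1 and 0.48 in batch 2, against 0.38 and 0.34 for KRT8. When each batch was fitted alone, both genes passed in batch 2 (adjusted p = 0.0189 for KRT8 and 0.00745 for KRT18) but not in the 4 libraries of batch 1 (0.231 and 0.149). In batch 2 alone 5.13% of all genes were called as higher in HHH, and in batch 1 alone 0.291%. For a single gene, a lack of overlap within a batch is common, since 22.5% of all genes were higher in HHH without overlap in batch 1 and 18.1% in batch 2.

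The counts of the pair stayed close to each other in every library. KRT8 counts were 1.02 to 1.10 times those of KRT18 in the general libraries and 0.917 to 1.04 times in HHH. Both genes are uncertain to some extent, because they have many processed pseudogenes that can share their reads. The summed counts of the annotated KRT8 pseudogenes came to 0.278 to 0.351 of those of KRT8, and for KRT18 the ratio was 0.171 to 0.191. Of 119 keratin pseudogenes with a row 40 were tested, of which 8 were higher in HHH and 0 lower (edgeR, 20 at an unadjusted p under 0.05), with a median log2 fold change of 0.36. With the replicate number as a block 5 were higher and 0 lower. Without the block, 1.94% of all tested genes were called as higher in HHH and 3.89% as lower. KRT8P3, the pseudogene with the most counts, rose by 0.31 ± 0.065 (log2, SE, adjusted p = 0.0101), and its counts stayed at 0.135 to 0.154 of those of KRT8. Summing the pseudogenes into their parent genes before the fit gave 0.34 for KRT8 and 0.49 for KRT18. KRT8 and KRT18 also share 525 annotated exonic bases, 7.63% of those of KRT8 and 17.1% of those of KRT18, and whether the counting used strand is not stated.

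KRT19, a type I keratin that can also pair with keratin 8, lies at chr17:41523617-41528308 on the minus strand. Its levels were 72.0 and 89.7 CPM (general) and 100.2 and 91.9 CPM (HHH) in batch 1. In batch 2 they were 70.2, 66.5 and 72.7 CPM in the general libraries and 62.3, 63.2 and 64.7 CPM in HHH. HHH was thus above the general libraries in batch 1 and below them in batch 2, without overlap in either. The log2 difference was 0.24 in batch 1 and -0.15 in batch 2, and the interaction of batch and population did not pass (edgeR, adjusted p = 0.18, unadjusted 0.0162). Over both batches it was 0.016 ± 0.088 (SE, adjusted p = 0.941), with an interval of 2 SE from -0.16 to 0.19.

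KRT10 encodes a type I keratin of cornifying epidermis and lies at chr17:40818117-40822614. It held 2.92 and 4.24 CPM in the general and 4.41 and 4.76 CPM in the HHH libraries of batch 1, and 3.21, 1.70 and 2.95 against 3.79, 2.94 and 4.77 CPM in batch 2. The log2 fold change was 0.47 ± 0.18 (SE), near that of KRT18, but the spread was wider and the adjusted p was 0.15 (edgeR, unadjusted 0.0199). The interval of 2 SE ran from 0.11 to 0.83, so that a rise in HHH was neither shown nor excluded. In batch 2 the populations overlapped.

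**Figure D1:**
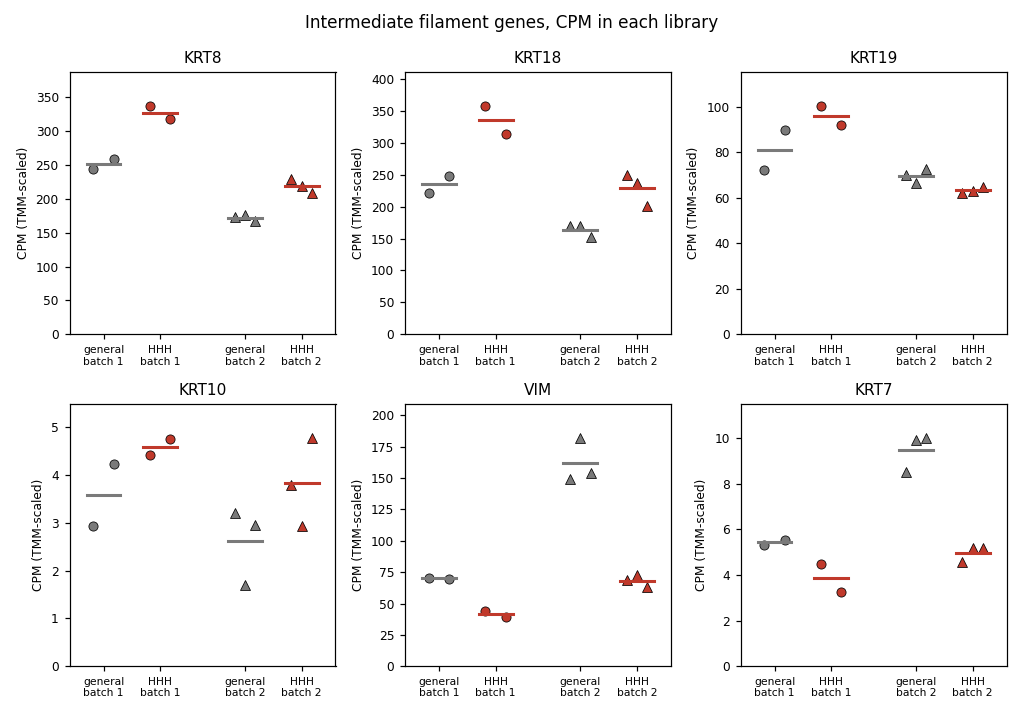
TMM-scaled CPM (linear axes from 0) of KRT8, KRT18, KRT19, KRT10, VIM and KRT7 in each library, with general libraries in grey, HHH in red, circles for batch 1, triangles for batch 2 and bars for the mean of each group. KRT8 and KRT18 were higher and VIM lower in HHH within each batch, while KRT19 moved up in batch 1 (72.0 and 89.7 to 100.2 and 91.9 CPM) and down in batch 2.

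VIM had the smallest p of the 9 tested genes. It was at 70.6 and 69.7 CPM in the general libraries of batch 1 and at 43.8 and 39.3 CPM in HHH. In batch 2 the general libraries held 149, 182 and 154 CPM and the HHH libraries 68.7, 72.7 and 63.2 CPM. HHH was lower without overlap in each batch, but the HHH libraries of batch 2 reached the general libraries of batch 1, so that the populations overlapped over all 10 libraries. Over all tested genes 21% were lower in HHH without overlap in batch 1 and 18.1% in batch 2. The general mean was 125 ± 51.7 CPM and the HHH mean 57.5 ± 15.1 CPM (SD over 5 libraries), and the log2 fold change of -1.05 ± 0.099 (SE) had an adjusted p of 1.65e-05. This is a 2.07-fold lower level, and VIM ranked 49 by p among the 23552 genes.

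The fall of VIM was seen in both batches when these were fitted apart. It was -0.76 in batch 1 (adjusted p = 0.0271), where only 0.282% of all genes were called as lower, and -1.25 in batch 2 (adjusted p = 4.22e-06), where 8.05% were. VIM was the 1 gene of the 9 that passed in batch 1. The interaction of batch and population did not pass (edgeR, adjusted p = 0.126, unadjusted 0.00537), and over all genes 0.777% were called for this interaction. The batch itself moved VIM almost as much as the population did, by 0.96 on the log2 scale in batch 2 against batch 1 (adjusted p = 6.73e-06). KRT8 and KRT18 went the other way, at -0.56 and -0.54, and 6 of the 9 genes differed between batches, beside 47.9% of all genes.

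The ratio of keratin to vimentin counts within a library, KRT8 plus KRT18 over VIM, does not depend on the scaling between libraries. In batch 1 it was 6.59 to 7.28 in the general libraries and 15.8 to 16.1 in HHH. In batch 2 it was 1.90 to 2.29 and 6.27 to 6.96. It was higher in HHH within each batch, yet the general libraries of batch 1 lay at the level of the HHH libraries of batch 2.

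Antisense transcripts cover part of VIM. ENSG00000234961, a long non-coding RNA gene that has 87.7% of its exonic bases within those of VIM, held 0.173 to 0.229 of the counts of VIM and fell by 1.14 on the log2 scale (adjusted p = 2.55e-06). VIM-AS1 had 0.692 CPM in the general population and 0.390 CPM in HHH, a log2 fold change of -0.85 (adjusted p = 0.0198), which did not pass with the replicate number as a block (0.0602). Without knowledge of strand, reads from VIM and from these genes cannot be told apart. The genes whose batch-centred log2 CPM lay nearest to that of VIM over the 10 libraries were CLU, ENSG00000234961, C1orf21, ABCA1 and ARMH4, at root mean square distances of 0.0963 to 0.114. CLU, which encodes the chaperone clusterin, went from 134 to 65.2 CPM.

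**Figure D2:**
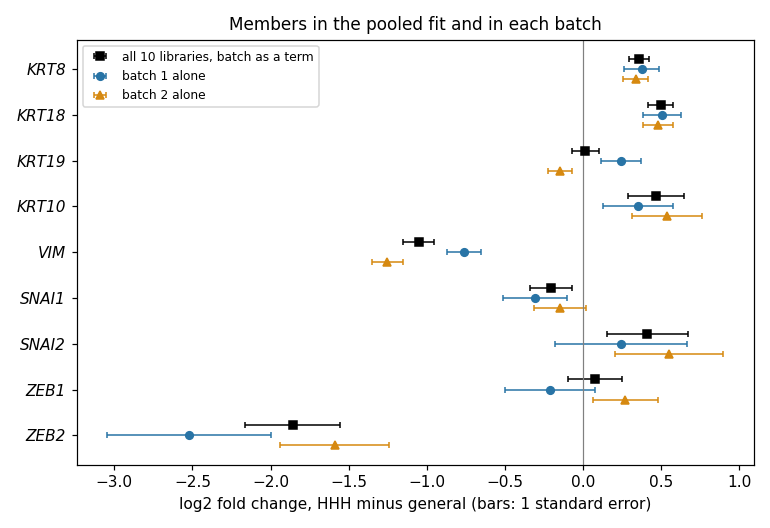
Log2 fold change (HHH minus general) of the 9 tested genes with bars of 1 standard error, in the fit of all 10 libraries (squares), in batch 1 alone (circles) and in batch 2 alone (triangles). KRT8 and KRT18 lie above 0 and VIM and ZEB2 below 0 in all 3 fits, while KRT19 and ZEB1 lie on opposite sides of 0 in the batches.

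SNAI1 had the highest level per transcript length of the 5 EMT factors. It encodes Snail, a repressor of CDH1, at chr20:49982980-49988886, and held 138 to 297 counts per library. Its level was 4.55 and 3.72 CPM (general) and 3.56 and 3.16 CPM (HHH) in batch 1. In batch 2 it was 3.75, 4.17 and 4.50 CPM and 3.55, 4.79 and 2.93 CPM. The batch 2 libraries overlapped, and the log2 fold change was -0.20 ± 0.14 (SE, adjusted p = 0.418).

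SNAI2 encodes Slug, a factor of neural crest and mesenchyme, and held 8 to 39 counts per library (0.140 to 0.597 CPM in general and 0.300 to 0.686 CPM in HHH). The populations overlapped in both batches, and the log2 fold change of 0.41 ± 0.26 (SE) had an adjusted p of 0.39. The interval of 2 SE ran from -0.11 to 0.93, so that a sizeable rise in HHH was neither shown nor excluded.

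Of the ZEB genes, ZEB2 passed the test and ZEB1 did not. ZEB1, at chr10:31318495-31529814, held 41 to 87 counts, or 1.13 and 1.46 CPM (general) and 1.01 and 1.24 CPM (HHH) in batch 1. In batch 2 it was at 0.885, 0.719 and 0.800 CPM in general and 0.910, 1.16 and 0.848 CPM in HHH. The populations overlapped in both batches, and the log2 fold change was 0.076 ± 0.17 (SE, adjusted p = 0.843).

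ZEB2 held 42 and 31 counts in the general libraries of batch 1 and 3 and 6 in HHH, which is 0.643 and 0.519 against 0.0643 and 0.137 CPM. In batch 2 it held 34, 33 and 52 counts in the general libraries and 8, 21 and 10 in HHH, or 0.590, 0.579 and 0.866 against 0.137, 0.363 and 0.177 CPM. All 5 HHH libraries were below all 5 general ones, and the highest HHH library, at 0.363 CPM, was still under the lowest general one. Over all tested genes 2% were lower in HHH without overlap. The log2 fold change was -1.86 ± 0.31 (SE, adjusted p = 0.00209), a 3.63-fold lower level, and it was -2.52 in batch 1 (adjusted p = 0.0926) and -1.59 in batch 2 (adjusted p = 0.0113). At 3 to 21 counts in HHH, its size is loosely set, and the lowest library lies at the floor of 3 counts (0.0459 to 0.0686 CPM, counting error only).

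TWIST1, a mesoderm and neural crest factor, had 1 to 4 counts in the general libraries and 0 to 4 in HHH, and no difference was detectable at this depth.

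**Figure D3:**
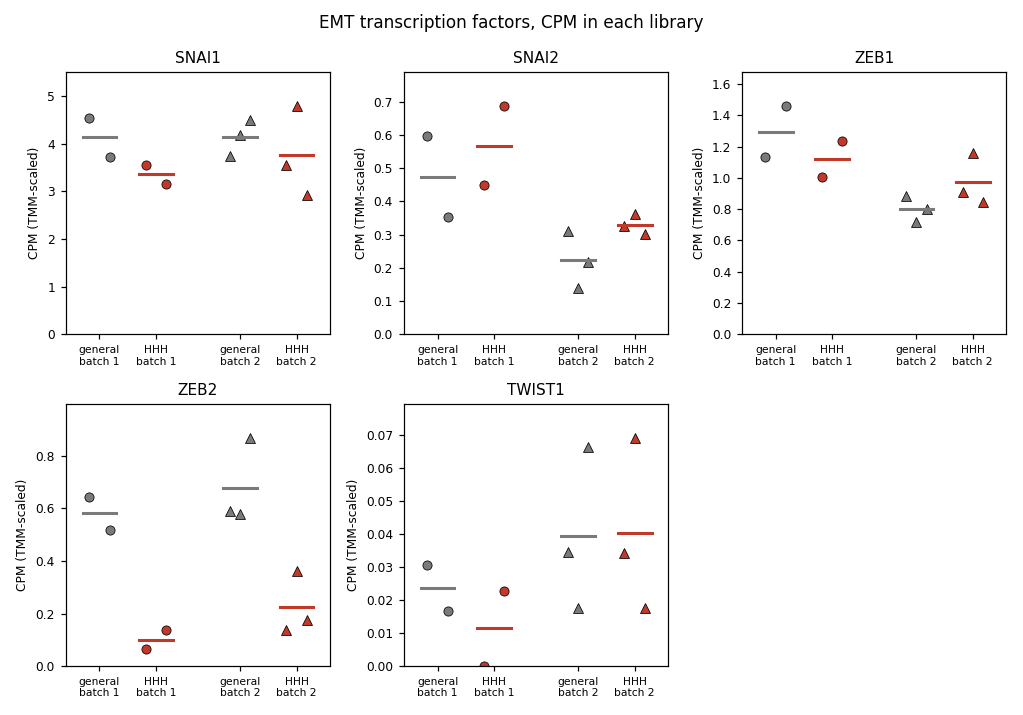
TMM-scaled CPM (linear axes from 0 that differ between panels) of SNAI1, SNAI2, ZEB1, ZEB2 and TWIST1 in each library, with general in grey, HHH in red, circles for batch 1, triangles for batch 2 and bars for group means. ZEB2 separated the populations, with 0.519 to 0.866 CPM in the general libraries and 0.0643 to 0.363 CPM in HHH, while the other 4 factors overlapped over the 10 libraries.

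Levels were set against each other per transcript length, as RPKM on the canonical transcript. KRT18 lay above KRT8 in every library, with means of 136 ± 29.0 and 114 ± 24.6 RPKM (SD, n = 5) in general and 192 ± 44.4 and 147 ± 33.8 RPKM in HHH. The place of VIM against KRT19 depended on the batch. In the general libraries of batch 1 VIM, at 32.8 and 32.4 RPKM, lay below KRT19, at 51.8 and 64.5 RPKM, and in those of batch 2 it lay above, at 69.3 to 84.4 against 47.8 to 52.3 RPKM. In HHH VIM lay below KRT19 in both batches, at 18.2 to 20.4 against 66.1 to 72.1 RPKM in batch 1 and 29.3 to 33.8 against 44.8 to 46.5 RPKM in batch 2. The order of this pair thus differed between populations in batch 2 and not in batch 1. Then came SNAI1, at a mean of 2.43 RPKM in general and 2.11 RPKM in HHH, and KRT10, at 1.40 and 1.93 RPKM. KRT10 lay below SNAI1 in every general library, but the order varied in HHH. There KRT10 lay above SNAI1 in batch 1 replicate 3 (2.22 against 1.85 RPKM) and batch 2 replicate 3 (2.23 against 1.72 RPKM). It lay below SNAI1 in the other HHH libraries. ZEB1 (0.168 and 0.174 RPKM) and SNAI2 (0.148 and 0.195 RPKM) overlapped in each group of libraries. ZEB2 (0.0690 and 0.0190 RPKM) and TWIST1 (0.0204 and 0.0177 RPKM) lay lowest.

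The miR-200 family is a well known partner of the ZEB genes, since these microRNAs repress ZEB1 and ZEB2 through their 3′ UTRs and the ZEB proteins repress the microRNA genes. The mature sequences are shown from RefSeq (GRCh38.p14) because the family falls into a pair of groups by seed (bases 2 to 8, in capitals).
hsa-miR-141-3p: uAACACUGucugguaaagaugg
hsa-miR-200a-3p: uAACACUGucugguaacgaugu
hsa-miR-200b-3p: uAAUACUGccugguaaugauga
hsa-miR-200c-3p: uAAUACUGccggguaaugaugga
hsa-miR-429: uAAUACUGucugguaaaaccgu
The canonical 3′ UTR of ZEB1 (2540 bases) held 3 matches to CAGTGTT, the complement of the first seed, and 6 to CAGTATT, the complement of the second. That of ZEB2 (5370 bases) held 4 and 5. Of the 4510 canonical 3′ UTRs at least as long as that of ZEB1, 30.1% held CAGTGTT and 27.6% CAGTATT in their first 2540 bases. As many matches as ZEB1 or more were held by 0.953% and 0.0222%, with ZEB1 itself included. Of the 1117 at least as long as that of ZEB2, 50.9% held CAGTGTT and 47.6% CAGTATT in their first 5370 bases. As many matches as ZEB2 or more were held by 1.07% and 0.0895%, with ZEB2 itself included. The microRNA loci themselves had 0 to 8 counts in these libraries, which were not made for small RNAs, and were not tested. In the wider list of miR-200 and miR-205 loci, with 7 rows, 1 gene was tested and did not pass (edgeR, log2 fold change -0.34). The whole list summed to 1.51 to 4.67 CPM in the general libraries and 1.70 to 2.40 CPM in HHH.

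Few other keratins were detected. Of 51 other keratin genes with a row, 25 were at 0 in all libraries and 2 could be tested. KRT7, the type II keratin of many glandular and trophoblast cells, fell in HHH, in the direction opposite to KRT8. It held 5.33 and 5.53 CPM (general) against 4.50 and 3.25 CPM (HHH) in batch 1, and 8.52, 9.91 and 9.99 against 4.56, 5.20 and 5.18 CPM in batch 2. The populations did not overlap over the 10 libraries, as for 2% of all tested genes that were lower in HHH. The log2 fold change of KRT7 was -0.76 ± 0.12 (SE, edgeR, adjusted p = 0.00149). KRT7-AS, which shares 7.05% of the exonic bases of KRT7 on the other strand, fell as well (0.845 to 0.435 CPM, adjusted p = 0.0108). KRT222 did not pass (adjusted p = 0.236). Of 12 tested intermediate filament genes outside the keratins and VIM, 0 were called (edgeR, 0 at an unadjusted p under 0.05), with NES, the nestin of neural progenitors, at 222 CPM in general and 192 CPM in HHH (adjusted p = 0.384). Of 13 genes for filament linkers and desmosomes, which anchor keratins at cell contacts, 0 were called as well (edgeR, 0 at an unadjusted p under 0.05). With the replicate block PPL, which encodes periplakin, was called as lower (log2 -0.44, adjusted p = 0.0291, against 0.242 without it). PLEC, which encodes the linker plectin, was at 166 CPM in general and 130 CPM in HHH over both batches. Its log2 difference changed sign, from 0.39 in batch 1 to -0.83 in batch 2 (edgeR, interaction, adjusted p = 0.0227). For NES it was 0.22 in batch 1 and -0.53 in batch 2, and the interaction did not pass (edgeR, adjusted p = 0.106).

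Genes that act around the EMT factors moved singly. Of 8 other EMT factors tested, 0 were called (edgeR, 2 at an unadjusted p under 0.05, TWIST2 and SOX9). Of 9 epithelial regulators, 0 rose and 2 fell, beside 1.94% of all tested genes called as higher and 3.89% as lower. CDH1, which encodes E-cadherin, went from 312 ± 22.9 CPM (SD) in general down to 234 ± 20.8 CPM in HHH, or by -0.41 ± 0.083 (log2, SE, adjusted p = 0.00759), and ELF3, an epithelial transcription factor, fell by 0.61 on the log2 scale (adjusted p = 0.00304). Both were lower in all HHH than in all general libraries, as were 2% of all tested genes. GRHL2, a regulator of epithelial genes, was at 44.2 CPM in general and 45.4 CPM in HHH (adjusted p = 0.771).

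Of 14 mesenchymal effector genes tested, 1 rose and 2 fell, beside 1.94% of all tested genes called as higher and 3.89% as lower. COL1A1, a fibrillar collagen gene, fell from 24.2 to 12.8 CPM (adjusted p = 0.00334), with a difference that varied between batches (-0.34 in batch 1 and -1.35 in batch 2, interaction adjusted p = 0.0315). ACTA2, smooth muscle actin, fell from 0.647 to 0.268 CPM (adjusted p = 0.034, or 0.0874 with the replicate block), while TAGLN, which encodes the actin-binding transgelin, rose from 57.2 to 75.3 CPM (adjusted p = 0.046). The collagen gene COL1A2, at an adjusted p of 0.106, was called as lower with the replicate block (log2 -0.37, adjusted p = 0.0281). CDH2, the N-cadherin gene, was at 62.7 CPM in general and 56.5 CPM in HHH (adjusted p = 0.322), and FN1, the fibronectin gene, at 132 and 128 CPM (adjusted p = 0.807).

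Of 16 corepressors and turnover factors of the Snail and ZEB proteins, 0 rose and 2 fell. These were AJUBA, an adaptor of Snail corepression, by 0.42 on the log2 scale (adjusted p = 0.00738), and LOXL2, a lysyl oxidase that binds Snail, by 0.38 (adjusted p = 0.0293). Of 7 genes for TGF-beta ligands and receptors, which induce EMT factors, 1 rose and 2 fell. Beside both lists, 1.94% of all tested genes were called as higher and 3.89% as lower. The ligand gene TGFB2 fell from 1.55 to 0.807 CPM (adjusted p = 0.00283). The receptor gene TGFBR2 rose from 8.88 to 11.3 CPM (adjusted p = 0.0198), and INHBA, the activin A subunit, fell from 0.868 to 0.404 CPM (adjusted p = 0.0376). TGFBR2 and INHBA did not pass with the replicate block (0.0545 and 0.106).

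**Figure D4:**
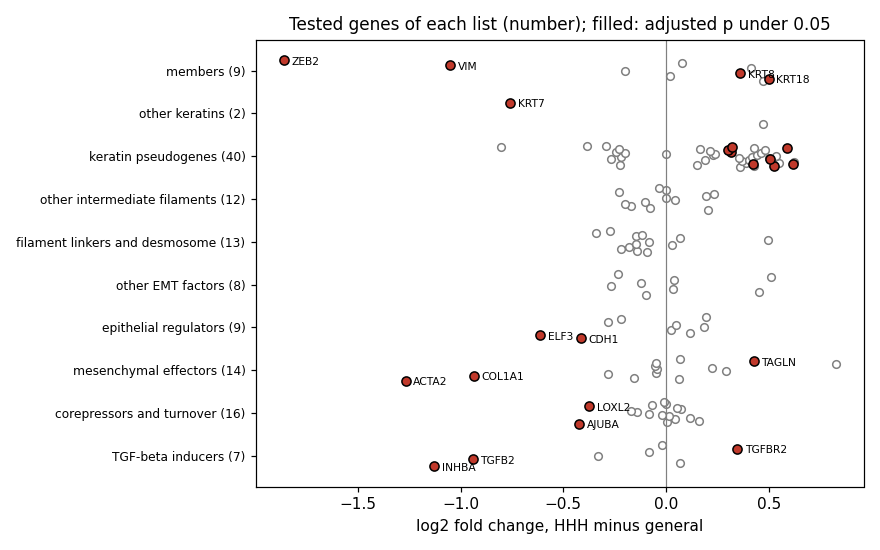
Log2 fold change (HHH minus general) of every tested gene in 10 lists, with the number tested in brackets, filled points for an adjusted p under 0.05 and open points for the rest. The 8 called keratin pseudogenes lie to the right of 0 with KRT8 and KRT18, whereas KRT7, CDH1 and ELF3 lie to the left with VIM and ZEB2.

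Among markers of other cell types, calls were most numerous in the neural ectoderm list. Without the replicate block, each other list had at most 1 gene called as higher and 1 as lower. The neural ectoderm list had 4 of 7 tested genes lower in HHH and 0 higher, with a median log2 fold change of -1.39. Over all tested genes 3.89% were called as lower and 1.94% as higher. Its summed level over 10 genes was 16.4 to 26.2 CPM in the general libraries and 5.81 to 8.53 CPM in HHH, with LHX5, an early forebrain gene, at 6.81 and 0.145 CPM. VIM and ZEB2, which neural progenitors express, moved in the same direction, and the part of such cells in their fall was not tested. Of 3 trophoblast and amnion markers tested, 1 rose (GABRP) and 1 fell (KRT7), and VTCN1 was also called as lower with the replicate block (adjusted p = 0.0385, against 0.0663). Of 6 fibroblast markers tested, THY1 rose and COL1A1 fell, while COL3A1, LUM and DCN, which define fibroblasts, held at most 8, 4 and 1 counts in any library. Of 6 neural crest markers tested, 1 rose (FOXD3, though its adjusted p was 0.126 with the replicate block) and 1 fell (SOX10), and of the mesoderm and endoderm markers 1 was tested and did not pass (MIXL1, adjusted p = 0.363).

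All 10 stem cell markers were tested, of which NANOG rose and PODXL and SOX2 fell, beside 1.94% of all tested genes called as higher and 3.89% as lower. With the replicate block SOX2 did not pass (adjusted p = 0.0773), while TDGF1, at 0.0749 without it, was higher (0.0342). Library totals were 47242595 to 78503395 counts, and 1 count stood for 0.0153 to 0.0229 CPM. Small nuclear and nucleolar RNAs took 2.71% to 4.97% of counts in batch 1 and 0.418% to 0.727% in batch 2.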

How the data were processed

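RNA of 5 general and 5 HHH libraries, grouped by their titles, was sequenced after TruSeq RNA library preparation. The submitters' processing notes name CASAVA 1.8.2, R 3.2.2, limma 3.26.9 and GRCh37. The aligner, counter and annotation are not given in the sources used here. The authors deposited raw fragment counts per Ensembl gene, which were used for all tests, and log2 RPKM values after TMM with a batch term subtracted, a score that the authors deposited and that served as an alternative only.

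Symbols, coordinates (GRCh38, 1-based) and exon overlaps came from GENCODE 44, which matched 88.5% of identifiers. Genes were kept by filterByExpr (minimum count 10, 23552 genes) and scaled by TMM. HHH and general were compared with edgeR 4.0.16 (quasi-likelihood F test, two-sided, additive batch term, R version 4.3.3). A gene passed at an adjusted p under 0.05. CPM used TMM-scaled library sizes, and RPKM divided CPM by the canonical transcript length. Motifs were counted in RefSeq windows. The members and lists were chosen with earlier results of these data known. The named genes were the 10 members, up to 4 genes per list with the smallest adjusted p, other keratins of at least 1 CPM, and the 5 genes nearest to VIM. GRHL2, CDH2 and FN1 were added after their values were seen. Depth is given as total counts, and floors cover counting error only. Intervals were built from the SE of the edgeR fit, which includes the spread between libraries.

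Libraries of the same number in batch 2 deviated together, at correlations of 0.239, 0.143 and 0.113, so the numbers were taken to pair them. The value in batch 1, 0.113, cannot bear on this, since with 2 libraries per population an unlike pair has the same one. The main fit, with batch as a term, did not use the pairing, and its SE and p-values treat the libraries as unpaired. The replicate block used it as an alternative, and called 1636 genes against 1373 in the main fit. Alternatives were the replicate block, no batch term, other scalings and filters, DESeq2 1.42.0, limma 3.58.1 with voom or on the deposited log2 values, each batch alone, each library left out, small RNAs left out, and pseudogenes summed. Summing VIM with ENSG00000234961 and centring the log2 values were added after seeing the data.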

Additional observations from a re-analysis of the deposited data

Results flagged for a closer look

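Of 20 groups of 5 libraries examined over the 10 genes, 1 held a library far from the others. A chance rate of 1 in 20 would hold for like libraries, but each group pooled libraries of both batches. The count was thus not set against chance. KRT19 was at 89.7 CPM in general batch 1 replicate 2, beside 66.5 to 72.7 CPM in the other 4 general libraries, a gap of 0.732 of the whole range.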

How the results depend on the processing

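KRT8, KRT18, VIM and ZEB2 passed in each of the 10 fits that left out 1 library, with 4 members called in every one (lowest 4, highest 4) and adjusted p-values of at most 0.0205, 0.00955, 1.65e-04 and 0.0102. With the replicate block 4 members were called, and KRT8 (0.0234), KRT18 (0.0047), VIM and ZEB2 (0.0114) kept their calls. In batch 1 that block pairs only the libraries numbered 2. General replicate 1 and HHH replicate 3 of batch 1 have no partner and do not bear on its population difference. Without the batch term 1 member was called, ZEB2, with KRT8 at an adjusted p of 0.582, KRT18 at 0.361 and VIM at 0.137. On the deposited log2 values 2 were called, with KRT8 at 0.301 and KRT18 at 0.137, and there the median of all genes was -0.12. After centring them 4 were called. Batch 1 alone gave 1, VIM. KRT10 passed without the filter on low counts (adjusted p = 0.0138). With a filter of at least 1 CPM in at least 5 libraries 3 members were called, since ZEB2, SNAI2 and ZEB1 were not tested. KRT19 turned negative with the replicate block (-0.064), upper quartile scaling (-0.0065), library size only (-0.026), the deposited log2 values (-0.12), batch 2 alone (-0.15), and without general batch 1 replicate 1 (-0.065) or HHH batch 1 replicate 2 (-0.036), and leaving out 1 library gave at most 0.048. ZEB1 did so on the deposited log2 values (-0.058), in batch 1 alone (-0.21) and without HHH batch 2 replicate 2 (-0.027), and leaving out 1 library gave at most 0.18. For the interaction 0 members were called, with 0 in the 10 fits that left out 1 library, but 1 on the deposited log2 values (ZEB1, limma, adjusted p = 0.0351, where the median of all genes was 0.46). On those values 5936 genes over all were called for the interaction, against 183 in the main fit. For HHH against general 1373 of all genes were called, against 168 without the batch term, 136 in batch 1 alone, 3166 in batch 2 alone, 2423 without the filter, and 808 to 2347 with 1 library left out. The causes were not tested. Depth limits TWIST1 (0 to 4 counts), SNAI2 (8 to 39) and ZEB2 (3 to 52) most.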
